A study of Mus musculus with 29 samples.

Results

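The genes described here encode the subunits of the proteasome that form its core particle and its regulatory cap. They were taken as a list of 32 symbols by function, with earlier results of these data known. All 32 were found among the 18240 genes of the table. The core genes number 14, of which 7 encode the alpha ring (Psma1 to Psma7) and 7 the constitutive beta ring (Psmb1 to Psmb7). The cap genes number 18, of which 6 encode ATPases (Psmc1 to Psmc6) and 12 non-ATPase subunits (Psmd genes).

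The proteasome degrades proteins that carry ubiquitin chains. The cap binds the chain, removes it and unfolds the substrate with its ATPase ring, and the core cleaves the chain of amino acids inside its beta rings, where Psmb5, Psmb6 and Psmb7 provide the chymotrypsin-like, caspase-like and trypsin-like active sites. Subunit genes are known to be transcribed together under the factor encoded by Nfe2l1, and proteasomes in neurons take part in the turnover of synaptic proteins.

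Bulk RNA of the prefrontal cortex was sequenced from C57BL/6J mice at postnatal day 40, to compare wild types (WT) with mice that carry 1 copy of Tbr1 with the K228E change (HT), and drugs with vehicle. Projection neurons of the cortex use the product of Tbr1, a transcription factor with a T-box domain. The WT group, all on vehicle, has 4 libraries of each sex. Among HT mice, vehicle has 3 libraries of each sex, fluoxetine, which blocks the reuptake of serotonin, has 4 of each sex, and lithium, which is used as a mood stabiliser, has 3 of females and 4 of males. Neither drug was given to WT mice in the libraries used here. Dose, route and length of treatment are not in the labels, which give 1 batch for all libraries and do not say that each is a separate animal, so p-values measure the spread between these 29 libraries. Whether a lower value means fewer cells of a type or less RNA per cell cannot be told apart in bulk tissue.

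Each library held between 22808894 and 31711931 reads over the genes of the table. A value below, called a normalised count, is a gene's reads divided by the size factor of its library. Tbr1 lay at 2866 ± 445 (SD, n = 8) in WT vehicle, 4067 ± 392 (n = 6) in HT vehicle, 4159 ± 590 (n = 8) in HT fluoxetine and 4425 ± 321 (n = 7) in HT lithium. The level of this transcript does not test which allele a mouse carries. The cortical markers Slc17a7 (32387 to 47980) and Camk2a (75592 to 105445) were present in all libraries. Summed markers of striatum (16 of 16 in the table) ran from 5108 to 11944 in WT vehicle, 5313 to 6726 in HT vehicle, 5381 to 20992 in HT fluoxetine and 5341 to 11354 in HT lithium. Those of olfactory areas (9 of 9) ran from 3085 to 23122, 5223 to 15929, 3608 to 21286 and 2093 to 12214 in the same groups. Their part in the results below was not tested, and the values without the libraries rich in these markers are given with the results they touch.

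Proteasome transcripts were abundant and even between libraries. Together the 32 genes took 0.231% to 0.271% of all normalised counts in a library, and the lowest value of any of them in any library was 937.6, so all 32 passed the filter on low values. Over all libraries the coefficient of variation of a subunit gene lay between 3.72% and 7.99%, with a median of 5.11% against 9.92% over all tested genes. The filter admits genes that reach only 10 in 3 libraries, and the members were not compared with genes of a similar level.

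Per kilobase of annotated exon, the scale on which genes were compared, the median of the core genes in WT vehicle mice was 749 normalised counts and that of the cap genes 597, against 100 over all genes with a length. The highest was Psmc5, a cap ATPase gene, at 2719 ± 157 (SD, n = 8), followed by the catalytic gene Psmb5 at 1842 ± 89.2 and the ATPase gene Psmc1 at 1445 ± 64.9. These 3 did not overlap with each other in the 8 WT libraries. The lowest were Psmd11, a lid gene, at 248 ± 11.6, and Psmd5, which encodes a chaperone of cap assembly, at 145 ± 7.35. Between these ends the order is loose, since 25 of the 31 neighbouring pairs overlapped between libraries. The catalytic genes Psmb6 and Psmb7 lay at 1041 ± 46.0 and 725 ± 34.4, and the lid deubiquitinase gene Psmd14 at 582 ± 35.4. Levels per kilobase depend on an exon length that counts all annotated exons, which is long for genes with many transcript forms.

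**Figure D1:**
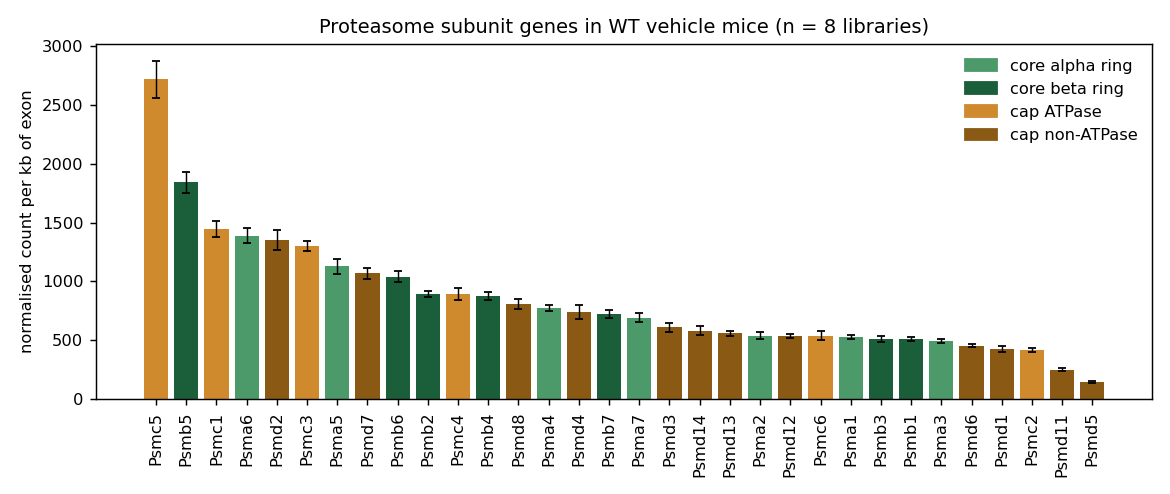
Normalised count per kilobase of exon for the 32 subunit genes in WT vehicle mice, as the mean of 8 libraries with the SD as error bar, ordered by level and coloured by role. Psmc5 stands at 2719 and Psmd5 at 145, and core and cap genes are mixed along the order.

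In 7 of the 32 genes the annotated span overlaps another gene of the table, for example Psmb7 with Nek6 and Psmd5 with Cutal on the opposite strand. In 3 of them an overlap lies on the same strand, which counting by strand would not separate. These are Psma2 with AW209491, Psmd1 with Gm21972 and Gm37914, and Psmd13 with Gm15542, while Psmd13 also overlaps Sirt3 on the opposite strand. The annotation also names pseudogene copies of Psmb5, Psmb6 and Psmb7, none of them in the table. The library kit keeps the strand, but whether counting used it is not given in the sources used here, so counts of these genes are uncertain where reads are shared. Psmd14 (chromosome 2, 61711694 to 61800376, plus strand, GRCm38) ends 2553 bases before Tbr1 (61802930 to 61814114) on the same strand. Psmd14 lay at 1642 ± 99.8 (SD, n = 8) in WT vehicle, 1656 ± 127 (n = 6) in HT vehicle, 1707 ± 139 (n = 8) in HT fluoxetine and 1756 ± 59.5 (n = 7) in HT lithium, and these groups overlapped, unlike Tbr1 in the WT and HT vehicle groups.

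The sequences before the transcription start are shown for 4 beta ring genes, because Psmb3, Psmb4 and Psmb6 carry the differences between sexes described further on and Psmb5 and Psmb6 hold the core of an antioxidant response element. This element, TGACNNNGC on either strand, is bound by factors of the family of Nfe2l1. Each is the 250 bases before the start from RefSeq (GRCm38.p6), 5′ to 3′ on the strand of the gene, with matches to TGACNNNGC or to the CCAAT box (CCAAT, either strand) in capitals.
Psmb3, chr11:97703184-97703433, plus strand, with 2 CCAAT boxes: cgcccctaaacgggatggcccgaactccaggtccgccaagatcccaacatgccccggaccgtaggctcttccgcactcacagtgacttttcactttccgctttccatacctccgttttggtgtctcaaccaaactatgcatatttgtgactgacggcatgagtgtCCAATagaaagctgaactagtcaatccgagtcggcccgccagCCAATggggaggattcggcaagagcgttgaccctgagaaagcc
Psmb4, chr3:94886959-94887208, minus strand, with neither motif: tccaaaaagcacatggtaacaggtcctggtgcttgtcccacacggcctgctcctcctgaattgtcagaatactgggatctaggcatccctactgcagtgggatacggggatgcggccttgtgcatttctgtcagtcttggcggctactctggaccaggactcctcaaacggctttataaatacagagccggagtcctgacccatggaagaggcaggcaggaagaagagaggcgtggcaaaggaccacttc
Psmb5, chr14:54617996-54618245, minus strand, with TGACNNNGC 47 to 39 bases before the start: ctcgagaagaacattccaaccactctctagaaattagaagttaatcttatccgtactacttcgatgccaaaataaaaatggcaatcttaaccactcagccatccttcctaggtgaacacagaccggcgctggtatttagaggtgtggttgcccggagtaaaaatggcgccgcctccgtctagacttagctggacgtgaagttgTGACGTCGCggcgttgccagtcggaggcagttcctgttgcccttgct
Psmb6, chr11:70525107-70525356, plus strand, with TGACNNNGC in the 9 bases before the start: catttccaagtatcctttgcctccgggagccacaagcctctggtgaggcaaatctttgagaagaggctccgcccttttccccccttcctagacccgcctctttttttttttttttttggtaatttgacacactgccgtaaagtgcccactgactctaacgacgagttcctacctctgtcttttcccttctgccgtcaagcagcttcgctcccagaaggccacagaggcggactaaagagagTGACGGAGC
Of the 32 genes, 26 had an entry, with 28 windows in all. The response element core was found in 4 of these windows (Psmb5, Psmb6, Psmc6 and Psmd12), or 14.3%, against 10.2% of all 32851 windows of this length. CCAAT was found in 10 windows, or 35.7% against 33.8%, and the T-box half-site AGGTGTGA in 1 (Psmd13), or 3.57% against 1.12%. A match is a description of the letters, not of binding, and the promoter table had no entry for Psmb2.

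The genotype comparison asked how carriers of the allele differ from wild type without a drug. None of the 32 genes passed the threshold in HT vehicle against WT vehicle by limma (adjusted p under 0.05, 0.207% of all tested genes) or edgeR, and 1, Psmb2, passed by DESeq2 (1.22% of all tested genes). At an unadjusted p under 0.05 there were 5 of 32, against 12.3% of all tested genes. The median log2 difference was -0.042 over the core genes and 0.014 over the cap genes, against 0.000 over all 17881 tested genes.

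Psmb2, a non-catalytic beta ring gene (chromosome 4, 126677630 to 126709714), had the smallest p. Its normalised counts in WT vehicle were 1049, 1056, 1114 and 1081 in females and 1019, 1105, 1060 and 1115 in males. In HT vehicle they were 1261, 1220 and 1223 in females and 1125, 1132 and 1104 in males. All HT females lay above all WT libraries, while the HT male at 1104 lay within the WT range. The log2 difference was 0.13 ± 0.033 (SE; limma, Benjamini-Hochberg adjusted p = 0.0867), or 1.09-fold. It passed the threshold when WT vehicle male 4 was left out (adjusted p = 0.0430), and over the 29 libraries left out in turn the adjusted p ran up to 0.193.

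Within a sex, 0 of 32 passed by limma in females or in males (0% of all tested genes in each), and 3 in females (7.45% of all tested genes) and 5 in males (11.1%) had an unadjusted p under 0.05.

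Next came Psma4, an alpha ring gene, and Psmc3, a cap ATPase gene. Psma4 in WT vehicle lay at 1747, 1818, 1847 and 1784 in females and at 1871, 1898, 1882 and 1820 in males. It was 1782, 1763 and 1720 in HT vehicle females and 1664, 1794 and 1728 in HT vehicle males. The lower values were in HT mice, but the groups overlapped, with a log2 difference of -0.07 ± 0.027 (limma adjusted p = 0.229). For Psmc3 the log2 difference was 0.08 ± 0.030 (limma adjusted p = 0.240).

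Fluoxetine was compared with vehicle within HT mice over both sexes, and none of the 32 genes passed (0% of all tested genes by limma; 0 members by edgeR and by DESeq2). At an unadjusted p under 0.05 there were 3 of 32, against 7.81% of all tested genes. The median log2 difference was 0.031 for core and 0.024 for cap genes, against -0.004 for all genes. The HT vehicle libraries serve in this comparison, in the lithium comparison and in the genotype comparison, so that a chance deviation in them enters all of these.

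Psmd5, the assembly chaperone gene, had the smallest p under fluoxetine. Its normalised count was 1001, 1040 and 1025 in HT vehicle females and 1015, 1040 and 938 in HT vehicle males. Under fluoxetine it was 952, 1193, 1103 and 1070 in females and 1072, 1100, 1134 and 1131 in males. All fluoxetine libraries except the female at 952 lay above all vehicle libraries, with a log2 difference of 0.11 ± 0.042 (limma adjusted p = 0.517). WT vehicle mice lay between, at 1051 ± 53.2 (SD, n = 8).

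Psmc6, a cap ATPase gene, followed. It lay at 1724, 1695 and 1909 in HT vehicle females and at 1707, 2001 and 1613 in males. Fluoxetine libraries gave 1853, 1977, 1956 and 1977 in females and 1825, 1854, 1912 and 2043 in males. The groups overlapped through the vehicle libraries at 1909 and 2001, and the log2 difference was 0.12 ± 0.048 (limma adjusted p = 0.552). The catalytic gene Psmb7 differed by 0.08 ± 0.036 (limma adjusted p = 0.618), from 2381 ± 77.2 (SD, n = 6) to 2516 ± 163 (n = 8).

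The other catalytic genes had similar means in the 4 groups. Psmb5 was 1656 ± 80.2 (SD, n = 8) in WT vehicle, 1646 ± 177 (n = 6) in HT vehicle, 1667 ± 149 (n = 8) in HT fluoxetine and 1700 ± 102 (n = 7) in HT lithium. Psmb6 was 1948 ± 86.2, 1975 ± 103, 1934 ± 181 and 1915 ± 130 in the same groups, and for both genes the groups overlapped.

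Lithium against vehicle in HT mice likewise gave no member past the threshold (0% of all tested genes by limma; 0 members by edgeR and by DESeq2), with 7 of 32 at an unadjusted p under 0.05 against 11.4% of all tested genes. The median log2 difference was 0.052 for core and 0.042 for cap genes, against -0.004 over all genes.

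Psmd12, a scaffold subunit gene of the lid, had the smallest p. Its normalised count was 1451, 1452 and 1366 in HT vehicle females and 1207, 1409 and 1400 in HT vehicle males. Lithium libraries gave 1490, 1546 and 1585 in females and 1465, 1473, 1476 and 1498 in males. All 7 lithium libraries lay above all 6 vehicle libraries, and the log2 difference was 0.13 ± 0.037 (limma adjusted p = 0.249), or 1.09-fold. The share of all tested genes that separate lithium from vehicle libraries in this way was not counted. In WT vehicle Psmd12 was 1422 ± 39.8 (SD, n = 8) and reached 1479.

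Psmd5 also lay above vehicle in every lithium library, at 1062, 1111 and 1170 in females and 1085, 1085, 1120 and 1093 in males, against a highest vehicle value of 1040. Its log2 difference was 0.13 ± 0.043 (limma adjusted p = 0.283). Psmd7, the lid partner of the deubiquitinase subunit, differed by 0.09 ± 0.033 (limma adjusted p = 0.311). Within a sex, lithium gave 0 of 32 past the threshold by limma in females or in males (0% of all tested genes in each), with 3 in females (4.3% of all tested genes) and 5 in males (10%) at an unadjusted p under 0.05.

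Between the drugs, lithium against fluoxetine gave no member past the threshold by limma (0% of all tested genes), edgeR or DESeq2 and 0 of 32 at an unadjusted p under 0.05 (3.50% of all tested genes). The smallest p values belonged to Psmd12 (log2 difference 0.07 ± 0.034), Psmb2 (0.06 ± 0.031) and the cap ATPase gene Psmc4 (0.06 ± 0.036), each with a limma adjusted p of 0.985.

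Treated carriers were also set against WT vehicle mice, which asks whether HT mice under a drug differ from untreated wild type. With fluoxetine 0 of 32 genes passed by limma (0.19% of all tested genes), edgeR or DESeq2, and 2 had an unadjusted p under 0.05 (9.26% of all tested genes). The smallest p values were those of Psmd2, a base scaffold gene (0.08 ± 0.031, limma adjusted p = 0.368), Psmb2 (0.06 ± 0.030, adjusted p = 0.526) and Psmd1, the other large base gene (0.07 ± 0.035, adjusted p = 0.566). In HT lithium against WT vehicle Psmb2 was higher, as 1 of 32 genes against 1.9% of all tested genes, or 1.33% called higher. HT mice on vehicle were at a similar level, at 1177 ± 64.8 (SD, n = 6) against 1164 ± 44.9 (n = 7) in HT lithium. At an unadjusted p under 0.05 there were 8 of 32, against 18.6% of all tested genes.

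Psmb2 in HT lithium was 1211, 1213 and 1191 in females and 1160, 1091, 1157 and 1127 in males, against 1019 to 1115 in WT vehicle. All lithium libraries except the male at 1091 lay above all WT libraries. The log2 difference was 0.12 ± 0.031 (SE; limma adjusted p = 0.0445), or 1.09-fold, and edgeR and DESeq2 also called it. The limma call was lost when any of 17 of the 29 libraries was left out, with adjusted p between 0.0248 and 0.0967 over all 29: all 4 WT vehicle females, WT vehicle males 1 and 3, all 3 HT vehicle females, HT vehicle male 1, HT fluoxetine female 3, all 3 HT lithium females and HT lithium males 1, 3 and 4. It was also lost without the libraries rich in striatal or olfactory markers (log2 difference 0.13, adjusted p = 0.217). Psmc1 (0.11 ± 0.039, limma adjusted p = 0.145) and Psmd7 (0.08 ± 0.031, adjusted p = 0.163) came next.

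Core and cap genes were set side by side against WT vehicle mice. For HT lithium, all 18 cap genes had a positive log2 difference, with a median of 0.069, and 9 of 14 core genes did, with a median of 0.020, against 48.4% of all tested genes and a median of -0.005. In the same comparison the markers of olfactory areas were negative in 9 of 9 (median -1.097, 0 called by limma), those of meninges in 8 of 8 (-0.251, 0 called), and those of endothelial and mural cells in 6 of 9 (-0.131, 3 called). Markers of cortical glutamatergic neurons were positive in 7 of 7 (0.119, 2 called). This list includes Tbr1, the gene that differs by genotype, which was itself called (0.63, limma adjusted p = 0.000326). The part of these markers in the values of the cap genes was not tested. For HT fluoxetine, 17 of 18 cap genes and 7 of 14 core genes were positive, with medians of 0.040 and 0.001, against 48.7% of all tested genes and a median of -0.003. For HT vehicle the medians were 0.014 for cap and -0.042 for core genes, so the cap median lay above the core median without a drug too. These comparisons all share the WT libraries. There the cap mean ran from -0.107 to -0.008 in males and from -0.034 to 0.032 in females (log2, centred on all libraries).

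The mean of the core genes minus that of the cap genes, which does not depend on the scale of a library, was 0.025 ± 0.045 (SD, n = 8) in WT vehicle, -0.003 ± 0.040 (n = 6) in HT vehicle, -0.010 ± 0.051 (n = 8) in HT fluoxetine and -0.015 ± 0.030 (n = 7) in HT lithium. These groups overlapped. In WT vehicle it was higher in males, from 0.031 to 0.096, than in females, from -0.027 to 0.008, and in HT lithium it was lower in males, from -0.049 to -0.023, than in females, from -0.021 to 0.038.

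**Figure D2:**
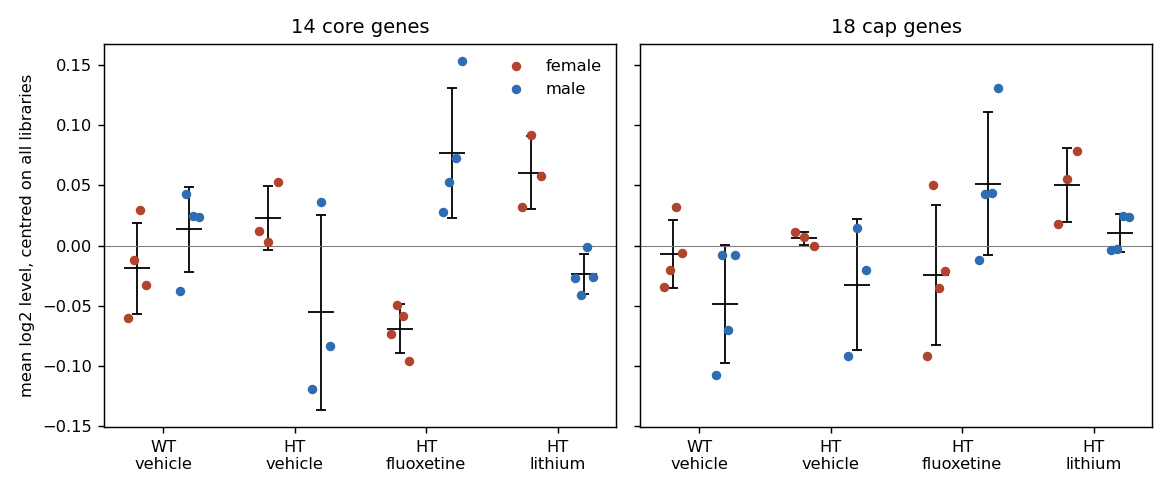
Mean log2 level of the 14 core and 18 cap genes in each library, centred on all libraries, by group, with females in red, males in blue and the mean ± SD of each group and sex in black. In HT fluoxetine the core means of the females run from -0.096 to -0.049 and those of the males from 0.028 to 0.153, and the order of the sexes is the other way round in HT lithium.

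The fluoxetine difference was also taken within each sex. In HT males all 32 genes lay higher under fluoxetine than under vehicle, against 49.7% of all tested genes. The median log2 difference was 0.11 for core and 0.075 for cap genes. These values rest on 3 HT vehicle males, whose core means were -0.119, 0.036 and -0.083 (log2, centred on all libraries). In HT females 22 of 32 genes lay lower, while 50.3% of all tested genes lay higher. The medians there were -0.11 for core and -0.036 for cap genes. Within either sex no member passed (0.028% of all tested genes in females and 0% in males by limma), and 10 of 32 in females (11.9% of all tested genes) and 15 of 32 in males (10% of all tested genes) had an unadjusted p under 0.05. The smallest p in females were those of Psmb2 (-0.19 ± 0.046, limma adjusted p = 0.117) and Psmb3 (-0.21 ± 0.054, adjusted p = 0.139), and in males those of Psmb4 (0.22 ± 0.050, adjusted p = 0.291) and Psmb3 (0.22 ± 0.054, adjusted p = 0.291).

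The difference itself, female minus male, was tested as an interaction. It passed for 2 of 32 genes, Psmb3 and Psmb4, both lower, against 0.106% of all tested genes (0.101% lower). By edgeR 2 and by DESeq2 6 members passed, the 6 being Psmb3, Psmb4, Psmb5, Psma5, Psmc3 and Psmb2, against 0.112% and 1.12% of all tested genes. At an unadjusted p under 0.05 there were 17 of 32, against 13.6% of all tested genes. The median was -0.24 over the beta ring, -0.18 over the alpha ring, -0.18 over the cap ATPases and -0.10 over the other cap genes, against 0.007 over all genes. Of the members, 30 of 32 were negative, while 51.3% of all tested genes were positive.

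**Figure D3:**
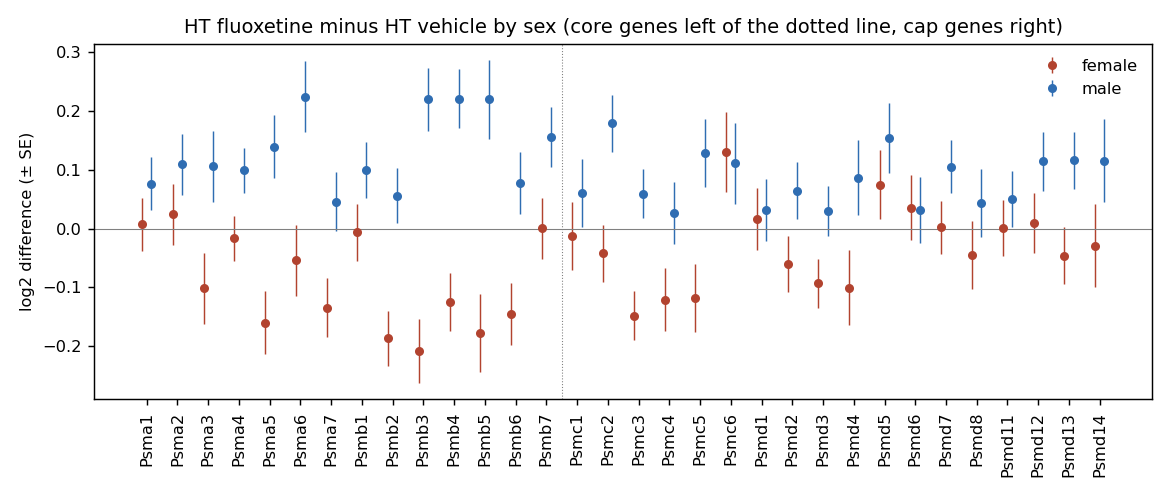
Log2 difference of HT fluoxetine minus HT vehicle for each of the 32 genes, with its SE, for females (red) and males (blue). All 32 male values are above 0 and 22 of 32 female values below it, and the widest gap is that of Psmb3. Of all tested genes, 49.7% are above 0 in males and 50.3% in females.

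Psmb3 and Psmb4 encode non-catalytic subunits of the beta ring. Psmb3 (chromosome 11, 97703399 to 97713500, plus strand) lay at 1268, 1213 and 1354 in HT vehicle females and at 1076, 1243 and 1165 in HT vehicle males. Under fluoxetine it was 1185, 1114, 1127 and 1004 in females and 1354, 1297, 1338 and 1414 in males. Vehicle females and males overlapped, while under fluoxetine all males lay above all females. The interaction was -0.43 ± 0.076 (SE; limma adjusted p = 0.0156). Leaving out HT vehicle female 3 ended the call (-0.39, adjusted p = 0.103), as did leaving out HT vehicle male 1 (-0.37, adjusted p = 0.113). Fitted on the 4 compared groups alone it was -0.43 (adjusted p = 0.258). With the libraries rich in striatal or olfactory markers removed, which leaves 1 HT fluoxetine male that is assumed to vary like the other groups, it was -0.42 (adjusted p = 0.459).

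Psmb4 (chromosome 3, 94884093 to 94886961, minus strand) gave 1701, 1747 and 1836 in HT vehicle females and 1474, 1635 and 1541 in HT vehicle males. Under fluoxetine it was 1606, 1588, 1707 and 1560 in females and 1742, 1765, 1798 and 1915 in males. Here all females lay above all males under vehicle and below all males under fluoxetine. The interaction was -0.34 ± 0.071 (limma adjusted p = 0.0454). The call was lost when any of 17 of the 29 libraries was left out (adjusted p from 0.0179 to 0.229 over all 29): WT vehicle females 2 and 4 and male 2, all 3 HT vehicle females, HT vehicle males 1 and 3, HT fluoxetine females 1 and 4 and males 2, 3 and 4, HT lithium female 2 and HT lithium males 1, 3 and 4. Without the libraries rich in striatal or olfactory markers the value was -0.29 (adjusted p = 0.555), and on the 4 compared groups alone -0.34 (adjusted p = 0.258).

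Both vehicle and fluoxetine libraries enter this interaction. The core mean (log2, centred on all libraries) was 0.012, 0.003 and 0.053 in HT vehicle females and -0.119, 0.036 and -0.083 in males, so 2 of 3 vehicle males were low. Under fluoxetine it was -0.073, -0.049, -0.058 and -0.096 in females and 0.028, 0.053, 0.073 and 0.153 in males.

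The sexes were therefore also compared within HT fluoxetine, a contrast added after the data were seen. Its estimate needs no vehicle library, but its p-values use a spread estimated from all 29 libraries. In this contrast 2 of 32 genes were lower in females, Psmb3 and Psmb6, against 0.738% of all tested genes (0.47% lower). By edgeR 3 and by DESeq2 7 members passed, against 0.744% and 3.17% of all tested genes. Psmb3 differed by -0.29 ± 0.050 (limma adjusted p = 0.00391), a call kept in each of the 29 fits without 1 library (adjusted p up to 0.0284). It was lost with only these 8 libraries in the fit (-0.29, adjusted p = 0.191) and without those rich in striatal or olfactory markers (-0.33, adjusted p = 0.450).

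Psmb6, the gene of the caspase-like subunit (chromosome 11, 70525367 to 70527858, plus strand), lay at 1875, 1777, 1731 and 1754 in HT fluoxetine females and at 2107, 1979, 2013 and 2234 in males. All males lay above all females, with a log2 difference of -0.22 ± 0.049 (limma adjusted p = 0.0318). The call was lost without HT fluoxetine female 3 (-0.21, adjusted p = 0.111), female 4 (-0.21, adjusted p = 0.107) or male 4 (-0.19, adjusted p = 0.168), with only these 8 libraries in the fit (-0.22, adjusted p = 0.259) and without those rich in striatal or olfactory markers (-0.21, adjusted p = 0.654). The other catalytic genes did not pass. Psmb5 was 1544 ± 88.4 (SD, n = 4) in females and 1790 ± 63.1 (n = 4) in males (-0.21, limma adjusted p = 0.0863), and Psmb7 was 2404 ± 100 and 2628 ± 135 (-0.13, adjusted p = 0.172).

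In HT fluoxetine all females lay below all males for 8 of 14 core genes (Psma2, Psma3, Psma5, Psma7, Psmb3, Psmb4, Psmb5 and Psmb6) and for 1 of 18 cap genes (Psmd3), against 3.77% of all tested genes. The order was the other way round in HT lithium, where all females lay above all males for 6 of 14 core genes (Psma1, Psma5, Psma7, Psmb2, Psmb3 and Psmb6) and 2 of 18 cap genes (Psmc3 and Psmc5), against 3.78% of all tested genes. It was so in HT vehicle for 3 core and 3 cap genes, against 4.79% of all tested genes. In WT vehicle females lay below males for Psma1 and Psmb3 (3.62% of all tested genes) and above them for Psmd3 (3.93%).

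**Figure D4:**
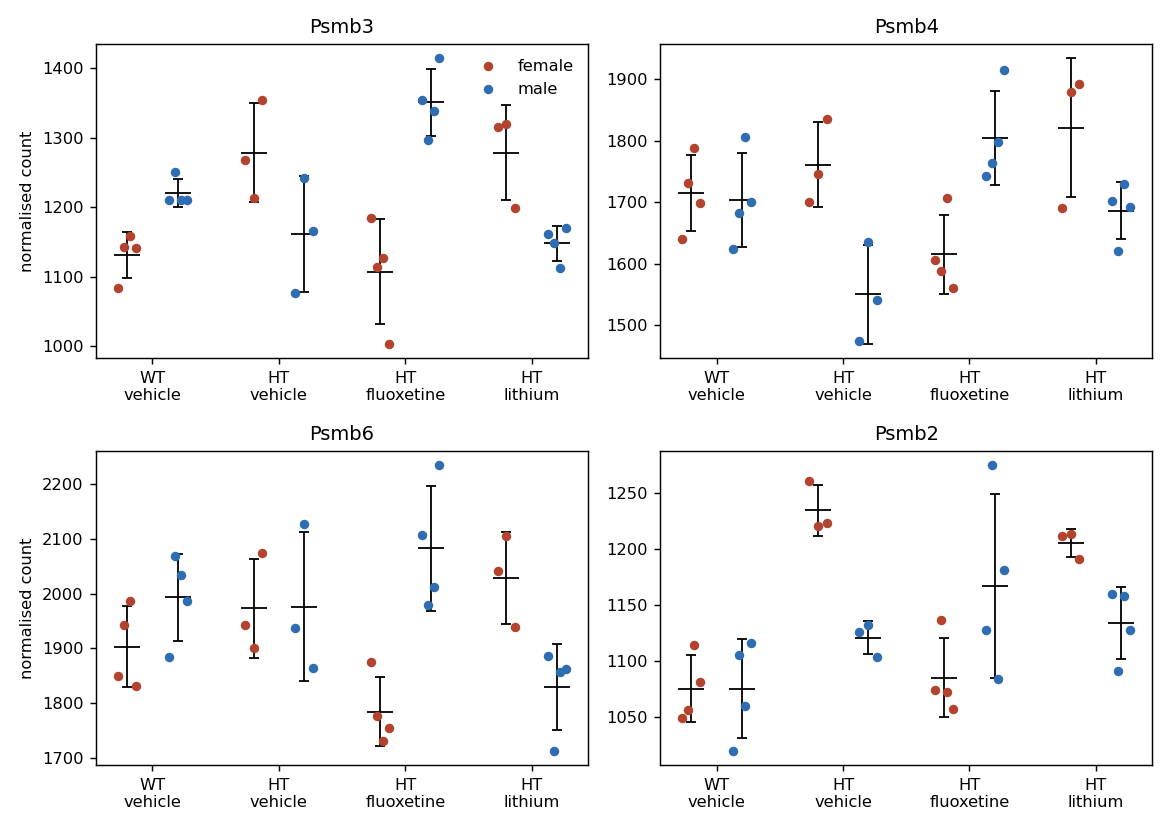
Normalised counts of the beta ring genes Psmb3, Psmb4, Psmb6 and Psmb2 in every library, by group, with females in red, males in blue and the mean ± SD in black; the axes do not start at 0. Psmb3 is lower in all females than in all males of WT vehicle and HT fluoxetine and higher in all females than in all males of HT lithium.

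Psmb3 shows this alternation in single libraries. It lay at 1084, 1142, 1159 and 1142 in WT vehicle females and at 1210, 1250, 1210 and 1210 in males. In HT lithium it was 1316, 1320 and 1199 in females and 1162, 1148, 1113 and 1170 in males. Neither sex difference passed, with log2 differences of -0.11 ± 0.050 in WT vehicle (limma adjusted p = 0.254) and 0.15 ± 0.054 in HT lithium (adjusted p = 0.865). Within HT vehicle the smallest p were those of Psmb4 (0.18 ± 0.053, adjusted p = 0.722) and Psmb2 (0.14 ± 0.049, adjusted p = 0.849). Members passing the threshold in a sex comparison of WT vehicle, HT vehicle or HT lithium numbered 0 by limma (0.252%, 0.0615% and 0.0559% of all tested genes), with 3, 6 and 5 of 32 at an unadjusted p under 0.05 (17.7%, 5.3% and 5.06%). In WT vehicle Psmd3, a lid gene, came closest (0.15 ± 0.039, adjusted p = 0.0796), followed by the ubiquitin receptor gene Psmd4 (0.14 ± 0.059, adjusted p = 0.205).

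The lithium difference gave no such pattern between sexes. Its interaction had 0 of 32 members past the threshold by limma (0% of all tested genes) and 0 at an unadjusted p under 0.05 (2.92% of all tested genes), with medians of 0.014 for core and -0.003 for cap genes. The smallest p were those of Psmb6 (0.15 ± 0.077) and Psma7 (0.10 ± 0.073), both with an adjusted p of 1. For the genotype difference 0 members passed by limma (0% of all tested genes) and 4 had an unadjusted p under 0.05 (5.6% of all tested genes), led by Psmb3 (0.25 ± 0.076) and Psmb4 (0.17 ± 0.071, both adjusted p = 0.847).

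Other gene lists had negative values in the interaction of fluoxetine with sex as well. The median log2 difference was -0.26 over 81 ribosomal protein genes and -0.27 over 81 nuclear genes of oxidative phosphorylation. Of these, 1 and 6 passed the threshold in the lower direction by limma, against 0.101% of all tested genes. Over all tested genes with a known exon length, divided into 5 classes of equal number, the median ran from -0.11 in the shortest class through -0.058, -0.012 and 0.028 to 0.11 in the longest. The proteasome genes in these classes numbered 8, 12, 7, 3 and 2, with medians of -0.26, -0.13, -0.12, -0.12 and -0.047, below the median of all genes in each class, though the last 2 classes hold few of them. In single libraries, the mean centred log2 level of the shortest class minus that of the longest ran from -0.110 to -0.022 in HT fluoxetine females. In males it ran from -0.003 to 0.180, so the sexes did not overlap in this measure either. The part of transcript length, RNA quality or dissection in the sex difference of the proteasome genes was not tested.

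**Figure D5:**
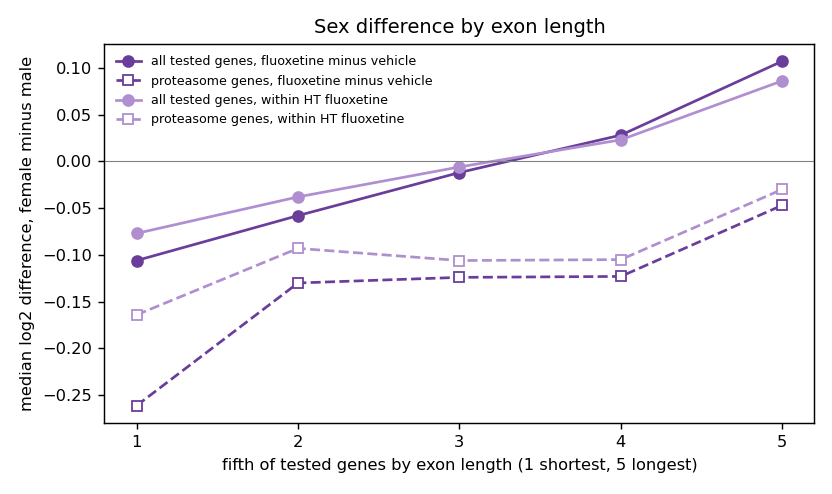
Median log2 difference between females and males in 5 classes of exon length, for all tested genes (solid) and the proteasome genes (dashed), in the interaction of fluoxetine with sex (dark) and within HT fluoxetine (light). The medians of all genes rise from -0.11 to 0.11 from the shortest to the longest class in the interaction, and the proteasome genes lie below them in each class.

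The striatal marker mean was above the median of all libraries by 2.80 (log2) in HT fluoxetine female 2 and by 2.16, 2.74 and 1.14 in males 1, 2 and 4, and the olfactory mean by 1.53 in female 1. With both marker means as covariates 2 members were called in the interaction (0.196% of all tested genes), and without the 11 libraries rich in these markers 0 were called by limma, with Psmb3 at an adjusted p of 0.459 and Psmb4 at 0.555. Their part in the sex difference was not tested.

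The other genes of the pathway, 54 in all outside the members, gave few calls. In the genotype comparison 0 of the 54 passed by limma, against 0.207% of all tested genes. At an unadjusted p under 0.05 there were 7 (13.0%), against 12.3% of all tested genes. Among them were Mafk, which encodes a partner of the factors of the Nfe2l1 family (0.20 ± 0.059, limma adjusted p = 0.140), and Rps27a, a ubiquitin fusion gene (-0.11 ± 0.045, adjusted p = 0.286). In HT lithium against WT vehicle Mafk was higher (0.22 ± 0.057, limma adjusted p = 0.0428), as 1 of the 54 genes (1.85%) against 1.9% of all tested genes. HT mice on vehicle were at a similar level, at 299 ± 26.4 (SD, n = 6) against 303 ± 14.5 (n = 7) in HT lithium. In this comparison 11 of 54 (20.4%) had an unadjusted p under 0.05, against 18.6% of all tested genes. For HT fluoxetine against WT vehicle 0 of the 54 passed by limma, against 0.19% of all tested genes. At an unadjusted p under 0.05 there were 9 (16.7%), against 9.26%. There Mafk came second (0.17 ± 0.055, limma adjusted p = 0.251) after Txnrd1 (0.10 ± 0.030, adjusted p = 0.236). In HT lithium Mafg (0.09 ± 0.028) and Rps27a (-0.14 ± 0.043) followed, both with an adjusted p of 0.0909. In HT fluoxetine the third was Hmox1 (0.22 ± 0.080, adjusted p = 0.354), a reporter of the related factor encoded by Nfe2l2.

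Under the drugs none of the 54 passed against HT vehicle by limma (0% of all tested genes for each drug). At an unadjusted p under 0.05 there were 2 (3.7%) under fluoxetine, against 7.81% of all tested genes. Under lithium there were 3 (5.56%), against 11.4% of all tested genes. The smallest p under lithium were those of the proteasome-bound deubiquitinase genes Uchl5 (0.16 ± 0.061, adjusted p = 0.349) and Usp14 (0.13 ± 0.054, adjusted p = 0.379) and of the small lid gene Sem1 (-0.13 ± 0.060, adjusted p = 0.430). Under fluoxetine they were those of Nsfl1c, a cofactor of the unfoldase p97 (-0.08 ± 0.036, adjusted p = 0.613), Psme2, an alternative cap gene (0.12 ± 0.058, adjusted p = 0.636), and Usp14 (0.10 ± 0.052, adjusted p = 0.636). Between the drugs 0 of the 54 passed by limma (0% of all tested genes). There 1 (1.85%) had an unadjusted p under 0.05, against 3.50% of all tested genes. Ddi2 (0.09 ± 0.043), Rps27a (-0.08 ± 0.043) and Nsfl1c (0.06 ± 0.034) led, each with a limma adjusted p of 0.985.

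In the interaction of fluoxetine with sex, 0 of the 54 passed by limma, against 0.106% of all tested genes. At an unadjusted p under 0.05 there were 6 (11.1%), against 13.6% of all tested genes. By list, all 5 core assembly chaperone genes (median -0.15) and all 4 cap genes outside the member list (-0.16) were negative. The transcription factor list had 4 of 8 negative (median 0.021), the substrate shuttles 3 of 6 (0.000) and the reporters of the factor encoded by Nfe2l2 2 of 7 (0.067). For Rps27a the value was -0.29 ± 0.090 (limma adjusted p = 0.176). In WT vehicle, Mafg was higher in females than in males (0.19 ± 0.039, limma adjusted p = 0.0247), as 1 of the 54 (1.85%) against 0.252% of all tested genes.

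Subunit genes varied together between libraries of the same group. After group means were removed, the mean Pearson correlation over the 29 libraries was 0.35 over 91 pairs of core genes, 0.37 over 153 pairs of cap genes and 0.29 over 252 pairs of a core with a cap gene, against 0.001 over all pairs of tested genes. All of these share libraries and their depth. Each gene was then set against the mean of the other 31. The alpha ring gene Psma6 (0.83) and the ATPase gene Psmc2 (0.82) followed it most closely, and Psmd8, a lid gene (0.18), and Psma3, an alpha ring gene (0.10), least. Among 17849 genes outside the list, those most like the mean of the members were Arf1 (0.86), Atp5f1 (0.85), Clta (0.84), Pebp1 (0.84) and Cfl1 (0.83), while 2.72% exceeded the median of the members of 0.57.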

How the data were processed

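Poly(A) RNA of 29 libraries was sequenced with a stranded kit, per the labels' protocols. The deposited table holds a normalised signal: counts that the authors scaled library by library. The scaling was inferred from the values, since dividing by 1 step per library gave whole reads for every value within a tolerance of 0.0001. The submitters' processing notes name the build GRCm38 and the tools DESeq2 1.19.11, Salmon 0.11.2 and R 3.6.0, but give no role for any. The normalised counts rest on 22808894 to 31711931 reads per library. Errors given with levels are the SD between libraries, and those given with log2 differences are the SE of the limma fit.

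Gene names, positions and exon lengths came from GENCODE annotation of GRCm38 (18227 of 18240 identifiers matched). Log2(value + 1) of genes with at least 10 in at least 3 libraries (17881) was fitted with limma 3.58.1 in R 4.3.3, with an intensity trend and 1 mean per group of genotype, treatment and sex. For a comparison over both sexes, the difference in females and that in males were averaged with equal weight. Tests are two-sided, Benjamini-Hochberg adjusted over all tested genes, with a threshold of 0.05. Fold changes are on the log2(value + 1) scale. The recovered counts were also tested with edgeR 4.0.16 and DESeq2 1.42.0. The limma fit was also run on counts simulated gene by gene, with known changes under fluoxetine that were equal in both sexes. That run does not test the interaction of fluoxetine with sex.

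The members and lists were chosen with earlier results of these data known. Named genes were the members past the threshold and the 3 with the smallest p in each comparison over both sexes, 2 in each sex comparison, and the 5 outside genes most like the mean of the members. Psmb5, Psmb6, Psmb7, Psmd14 and Psmd5 were named for their roles, and pathway genes by the same threshold and the 3 smallest p. Genes singled out by DESeq2 or by non-overlapping sexes were named after their values were seen. The ribosomal and oxidative phosphorylation lists were taken by symbol after the data were seen. Some pathway genes that this rule names are not reported here. No value over the members was tested. The main fit did not pair samples by the library numbers in the labels. The 6 comparisons over both sexes, and after the data were seen also the interaction of fluoxetine with sex and the sexes within HT fluoxetine, were repeated under other scalings, filters, models and replicate blocks, with marker covariates, and without single libraries or those rich in olfactory or striatal markers.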

Additional observations from a re-analysis of the deposited data

Results flagged for a closer look

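Of 140 checks of a single library against its group, made on the members, on the core and cap means and on the core minus the cap mean, 11 found a library far from the others, where chance gives about 1 in 20. HT vehicle male 1 was low for the cap mean (-0.092, the next at -0.020, log2), Psmc5 (3516, the next at 3824), Psmd7 (2245, the next at 2397) and Psmd12 (1207, the next at 1366). HT vehicle male 3 was low for Psmd5 (938, the next at 1001). HT fluoxetine male 4 was high for Psma1 (1731, the next at 1585), Psmb1 (2660, the next at 2359) and Psmd12 (1582, the next at 1463). The others were WT vehicle male 1 for Psma1 (1664), HT lithium male 2 for Psmc2 (2070) and HT lithium female 3 for Psmd2 (5969).

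The difference of HT fluoxetine from HT vehicle differed between females and males for Psmb3 (-0.43) and Psmb4 (-0.34) by the interaction test of limma.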

How the results depend on the processing

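Counts of called members stayed at 0 under every alternative for both drugs against HT vehicle, for lithium against fluoxetine and for HT fluoxetine against WT vehicle. No called difference of a member changed its direction in the comparisons repeated. Mafk and Mafg were not repeated. In the genotype comparison 1 member was called at a threshold of 0.1 (167 of all genes) and by DESeq2 (219), and 0 to 1 without single libraries. For HT lithium against WT vehicle the count of 1 became 0 with quantile normalisation, no intensity trend, an additive sex term, marker covariates or without the 11 libraries rich in markers, 2 (6.25%) with library weights, which called 6.57% of all tested genes, or with the replicate block by library name, which called 3.02%, and 0 to 1 without single libraries. For the interaction of fluoxetine with sex the count of 2 became 1 with no intensity trend, library weights or the replicate block by library name, 0 with only the groups compared or without the libraries rich in markers, 6 by DESeq2 (200 of all genes), and 0 to 3 without single libraries. Its core median ran from -0.263 to -0.176 without single libraries. For the sexes within HT fluoxetine the count of 2 became 1 with no intensity trend, 0 with only the groups compared or without the libraries rich in markers, 5 at a threshold of 0.1 (481 of all genes), 7 by DESeq2 (566), and 1 to 4 without single libraries. The alternatives of both fluoxetine sex contrasts were chosen after seeing the data. The cause of these shifts was not tested.

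Whether the replicate numbers of the titles pair the samples cannot be told from correlations between libraries, which cannot exclude it. Over 94 pairs of libraries with the same number in different groups, the correlation of deviations from the group means had a median of -0.014. It ran from -0.264 to 0.311, and 4 of 29 libraries correlated best with their own number. With the replicate block by title number, 1 member was called in HT lithium against WT vehicle, 2 in the interaction and 0 in the genotype comparison, as without it. Numbers in the library names gave a median of -0.001 over 92 pairs, and 8 of 29 libraries correlated best with their own number. With the replicate block by library name, 2 members were called in HT lithium against WT vehicle and 1 in the interaction. The lowest value of any member was 937.6, and the part of depth in the results was not tested.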
